A study of Mus musculus with 6 samples.

Results

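Aminoacyl-tRNA synthetases attach each amino acid to its tRNA, the step that supplies charged tRNA to the ribosome. The mouse genes of these enzymes were taken by symbol from the full gene table of a study of B16F10.9 melanoma cells, and all 36 listed genes were found among 39179 genes in the table. Of these, 20 encode cytosolic enzymes or enzyme subunits and 16, with symbols ending in 2, encode mitochondrial enzymes. This line makes pigment and comes from the C57BL/6 strain. RNA was sequenced from 3 libraries of untreated cells and 3 libraries of cells kept with recombinant mouse interferon-gamma (IFN-gamma) for 24 h. The labelled dose was 50 µg/ml, a unit in doubt, since ng/ml is the usual scale for this cytokine in culture. The labels state seeding in triplicate and nothing further on the independence of the cultures, and the authors' p-values may thus rest on technical spread.

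Levels were in FPKM, which divides fragments by the length of the transcript and by the fragments sequenced, so that levels of different genes can be set side by side. The authors' deposited table holds 1 FPKM value per gene and group and no value per library. No SD or n can therefore be attached to a level, and sequencing depth is unknown. "Rose" and "fell" are used where q in the authors' deposited table was under 0.05, and ratios are of IFN-gamma over untreated FPKM. All 36 synthetase genes were among the 17021 genes the authors tested. Their smallest q, 0.000187, goes with the smallest p-value in the authors' deposited table. It was shared by 13 of the 36 genes, so it does not rank them. In bulk RNA a change in every cell cannot be told apart from a larger change in some cells, nor fewer cells from less RNA per cell. The melanocyte genes Tyr, Tyrp1, Dct, Pmel, Mlana, Mitf and Sox10 stood between 78.7 and 2871 FPKM in untreated cells. The markers checked for immune, fibroblast, endothelial and keratinocyte cells stood at 1.29 FPKM or less in both groups. The cells given IFN-gamma carried its response, with the transcription factor gene Irf1 at 10.2 FPKM in untreated cells and 482 FPKM in treated cells.

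Cells keep separate sets of these enzymes for the cytosol and for the mitochondrion, all encoded in the nucleus, although Gars and Kars each make enzyme for both places. The enzymes fall into class I and class II, which differ in the fold of the catalytic site. Several cytosolic enzymes sit together in the multi-synthetase complex on scaffold proteins, while the others work free of it. Genes of the cytosolic set are known targets of Atf4, the transcription factor of the amino acid response, and the tryptophan enzyme gene Wars is known as an interferon-inducible gene in human cells. The tryptophan enzyme is also known to be secreted from human cells, and shortened forms of it act against blood vessel growth.

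The RefSeq promoter table (GRCm38.p6, from 250 bases before to 50 bases after each start site) held an entry for 27 of the 36 genes, 13 cytosolic and 14 mitochondrial. Wars, Rars, Cars, Hars, Lars, Nars, Vars, Hars2 and Pars2 had none. The windows below show where 5 cytosolic promoters carry the amino acid response element TGATGNAA, searched on both strands and set in capitals. It was found in 5 of the 27 genes (18.5%), against 3.97% of all 32851 promoters in the table. All 5 were cytosolic, and 8 cytosolic promoters held none. Each window runs 5′ to 3′ on the strand of its gene, and positions count from the start site.
Aars, position -112 (chr8:111033704-111033763, plus strand): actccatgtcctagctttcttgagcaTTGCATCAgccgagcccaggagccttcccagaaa
Aars, position 10 (chr8:111033825-111033884, plus strand): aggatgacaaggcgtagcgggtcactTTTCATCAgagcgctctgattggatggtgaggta
Gars, position -30 (chr6:55037945-55038004, plus strand): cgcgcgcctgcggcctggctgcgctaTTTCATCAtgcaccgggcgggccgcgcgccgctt
Iars, position 8 (chr13:49682111-49682170, plus strand): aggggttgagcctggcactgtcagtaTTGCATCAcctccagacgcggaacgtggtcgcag
Tars, position -15 (chr15:11399640-11399699, minus strand): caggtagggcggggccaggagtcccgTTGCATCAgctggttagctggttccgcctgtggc
Yars, position 4 (chr4:129189880-129189939, plus strand): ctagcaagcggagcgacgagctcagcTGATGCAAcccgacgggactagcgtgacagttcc

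The palindromic element TTCNNNGAA, known as the GAS sequence, was found in the promoters of Aars, Kars and Nars2, which is 11.1% of the genes with an entry against 8.3% of all promoters. Of the genes with this element Kars rose, Nars2 fell from 9.69 to 4.97 FPKM and Aars was not called. The Kars site is shown because Kars was among the largest rises of the set, with the element again in capitals.
Kars, position -9 (chr8:112011330-112011389, minus strand): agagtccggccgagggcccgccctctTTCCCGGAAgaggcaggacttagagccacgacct
The interferon-stimulated response element, GAAA repeated after 2 bases of any kind, was found in the Qars promoter alone among the members. This is 3.7% of the genes with an entry, against 3.44% of all promoters. The E-box CACGTG, which Myc binds, was found in Aars, Ears2, Farsb, Iars and Tars (18.5% against 7.15%). In Aars, Iars and Tars it lay in the same promoter as the amino acid response element. A match of letters describes the window and does not show that a factor binds there.

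All 20 cytosolic genes were well expressed and stood above 20 FPKM in both groups. In untreated cells they ran from 21.1 FPKM for Lars, the leucine enzyme, to 227 FPKM for Sars, the serine enzyme, with a median of 72.9 FPKM. After IFN-gamma they ran from 37.8 FPKM for Lars to 272 FPKM for Wars, with a median of 76.8 FPKM. The order at the top changed. In untreated cells Sars led, followed by Gars (159 FPKM), Dars (117 FPKM), Qars (113 FPKM) and Kars (94.1 FPKM), while Wars was 10th. After IFN-gamma Wars led, followed by Kars (184 FPKM), Gars (174 FPKM), Sars (137 FPKM) and Aars (132 FPKM). Neighbours in either order cannot be told apart, since no spread is given for a level. The mitochondrial genes were lower, with a median of 12.7 FPKM in untreated and 9.86 FPKM in treated cells. Lars2, the mitochondrial leucine enzyme, was the exception at 540 FPKM untreated, 9.97 times the next mitochondrial gene, Yars2.

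**Figure D1:**
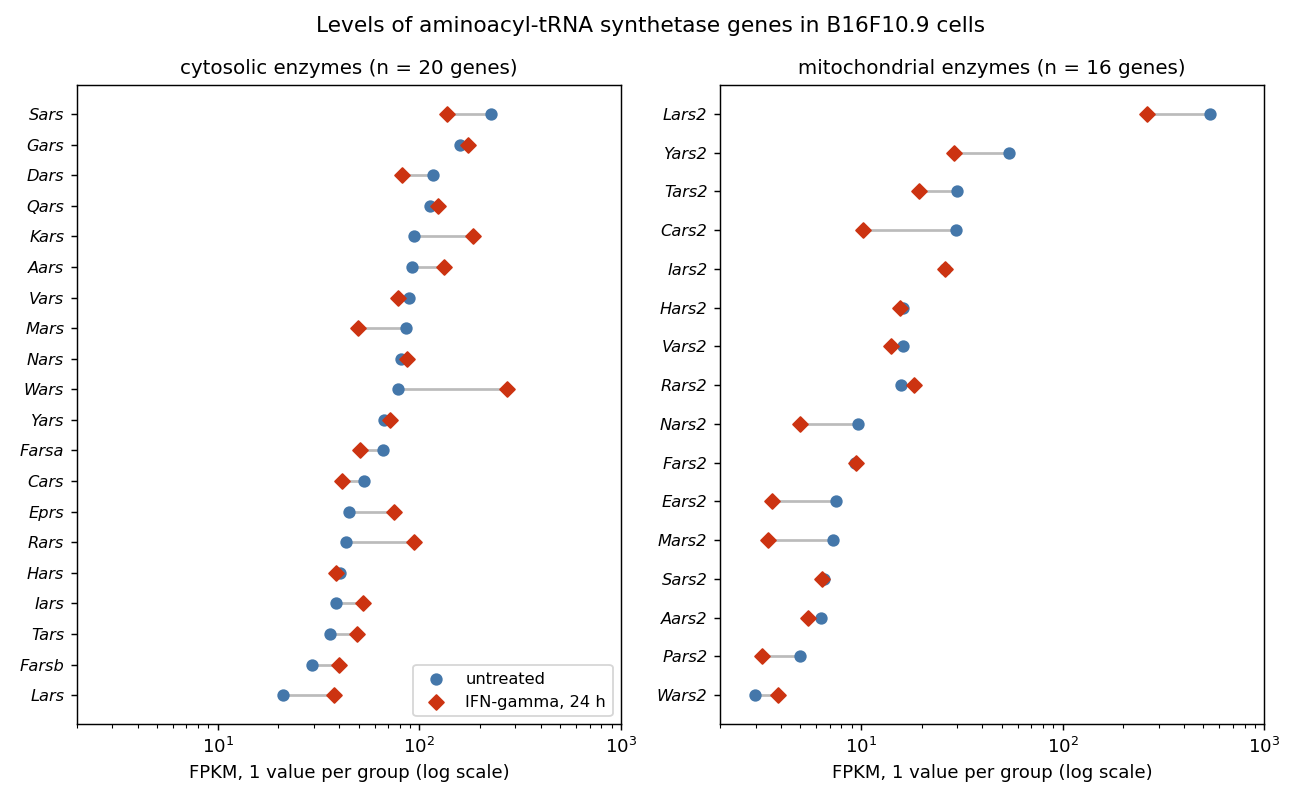
FPKM of the 20 cytosolic (left) and 16 mitochondrial (right) synthetase genes on a log axis, with 1 point per group and gene (blue circle, untreated; red diamond, IFN-gamma), a grey line joining the 2 values of a gene, and genes ordered by their untreated level. Wars goes from the middle of the cytosolic order to its top, at 272 FPKM, and Lars2 stands apart from the other mitochondrial genes in both groups.

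Wars, which charges tRNA with tryptophan, rose more than any other synthetase gene. Its level was 78.6 FPKM without and 272 FPKM with IFN-gamma, a 3.47-fold rise with a log2 ratio of 1.79 (q = 0.000187 in the authors' deposited table). The gene (ENSMUSG00000021266) lies on the minus strand of chromosome 12, from 108860030 to 108894174 (GRCm38, GENCODE M21). The median log2 ratio of the other 19 cytosolic genes was 0.13, so Wars stood 1.67 above it. The next in order was Rars, the arginine enzyme, at 1.11. Wars made up 4.99% of the summed FPKM of the cytosolic genes in untreated cells and 14.6% after IFN-gamma. That sum went from 1576 to 1872 FPKM, and the increase in Wars was 65.5% of the difference. The difference is net of 7 cytosolic genes with a ratio below 1, so 65.5% is not a share of the increases alone. Set among the 9662 tested genes that reached 5 FPKM in either group and had a finite ratio, 405 had a higher ratio than Wars, which stood at the 95.8th percentile. It was thus far from the 47.1-fold of Irf1 in the same cells. Its mitochondrial counterpart Wars2 was the lowest of all 36 genes in untreated cells, at 2.97 FPKM, and rose to 3.87 FPKM (1.31-fold, q = 0.0291 in the authors' deposited table).

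Of the 20 cytosolic genes 7 rose, 4 fell and 9 were not called. Rises were thus 35% of the set against 23.4% of all tested genes, and falls 20% against 20.9%. Among tested genes with at least 20 FPKM in the higher group, a level that every cytosolic member passed, 26.1% rose and 35.9% fell. At least 2-fold rises were those of 2 of the 20 genes, Wars and Rars, a share near the 9.69% of all tested genes. No cytosolic gene fell by as much. The median log2 ratio of the cytosolic genes was 0.13, beside 0.04 for all tested genes and -0.13 for tested genes with at least 20 FPKM.

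**Figure D2:**
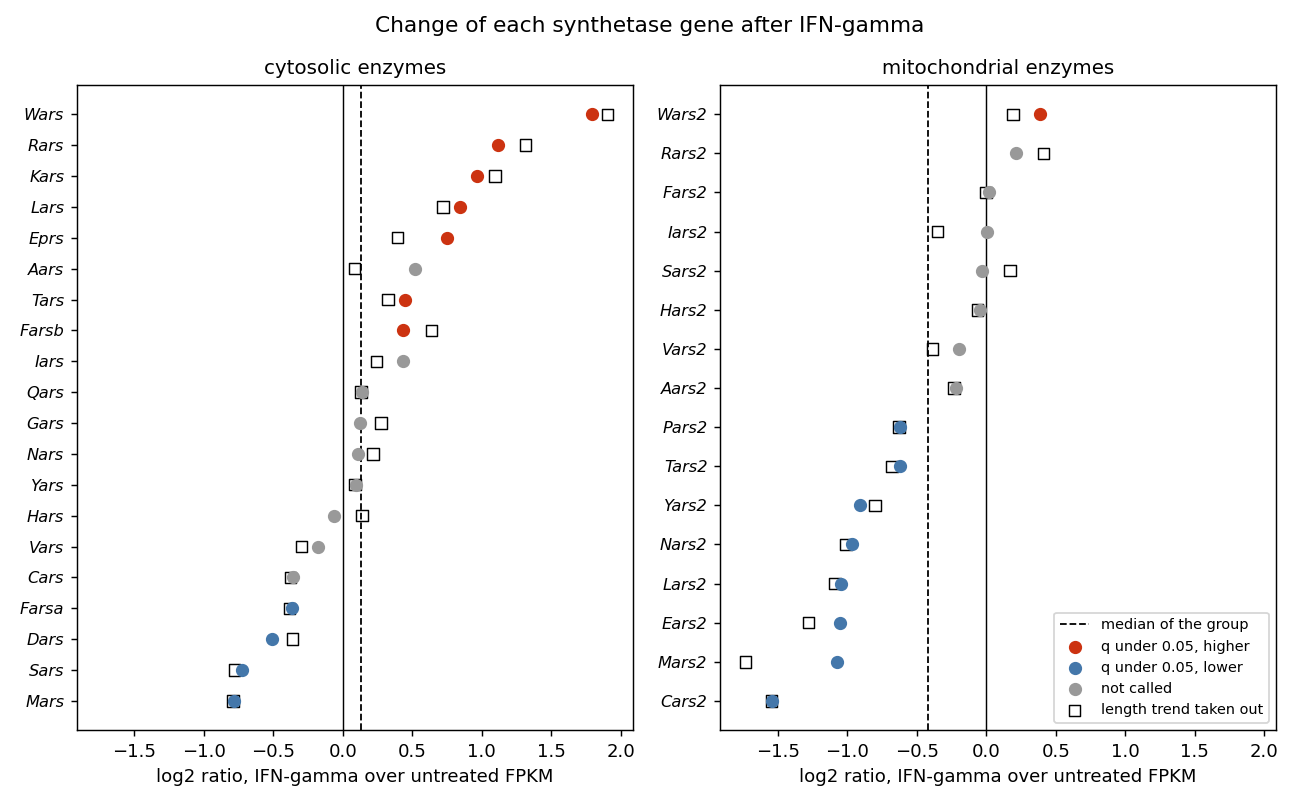
Log2 ratio of IFN-gamma over untreated FPKM for each cytosolic (left) and mitochondrial (right) gene, coloured by the authors' call, with the median of the group as a dashed line; open squares give the ratio after the trend with transcript length is taken out. The cytosolic points spread to both sides of 0, from -0.79 for Mars to 1.79 for Wars, while 12 of the 16 mitochondrial points lie below 0.

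The 8 enzymes of the multi-synthetase complex held 4 of the 7 cytosolic rises and 2 of the 4 falls. These counts are 50% and 25% of the complex, beside 26.1% higher and 35.9% lower among tested genes of at least 20 FPKM. Rars went from 43.2 to 93.6 FPKM (2.17-fold), Kars, the lysine enzyme, from 94.1 to 184 FPKM (1.96-fold) and Lars from 21.1 to 37.8 FPKM (1.79-fold). Eprs, which joins the glutamate and the proline enzyme in a single chain and in human cells takes part in silencing inflammatory mRNAs after IFN-gamma, went from 44.7 to 75.0 FPKM (1.68-fold). For each of these 4 the authors' deposited table gives q = 0.000187. Within the same complex 2 enzymes moved the other way. Mars, the methionine enzyme that supplies the initiator tRNA, fell from 85.4 to 49.5 FPKM (q = 0.00782 in the authors' deposited table). Dars, the aspartate enzyme, fell from 117 to 82.2 FPKM (q = 0.000187 in the authors' deposited table). Qars, the glutamine enzyme, at 113 and 124 FPKM, and Iars, the isoleucine enzyme, at 38.7 and 52.3 FPKM, were not called. The 8 enzymes had a median log2 ratio of 0.59 and a range from -0.79 to 1.11. With the median of genes of like transcript length taken out, their median was 0.32.

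The scaffold proteins of this complex did not share the direction of its rising enzymes. Eef1e1, also named AIMP3, fell from 155 to 68.8 FPKM (q = 0.000187 in the authors' deposited table). Aimp2 fell from 57.4 to 29.7 FPKM with the same q in the authors' deposited table. Aimp1, whose product is also released as a cytokine, stood at 63.1 and 57.6 FPKM and was not called. Of the 3 scaffold genes 2 fell and 0 rose, too few to set against the 35.9% of falls among tested genes of at least 20 FPKM. With the length trend taken out the log2 ratio of Aimp2 went from -0.95 to -0.47, and that of Eef1e1 was -1.04.

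The enzymes that work outside the complex were mostly without a call. Of these 12 genes 3 rose, 2 fell and 7 were not called, with a median log2 ratio of 0.10. The shares of 25% higher and 16.7% lower were near or below the 23.4% and 20.9% of all tested genes. Among tested genes of at least 20 FPKM 26.1% rose and 35.9% fell. Besides Wars, the rises were those of Tars, the threonine enzyme (35.97 to 49.02 FPKM, 1.36-fold), and Farsb (29.4 to 39.8 FPKM, 1.35-fold). Sars, the highest of the set before treatment, fell from 227 to 137 FPKM (q = 0.000187 in the authors' deposited table). In zebrafish and human cells the serine enzyme is also known to hold down the angiogenic gene Vegfa. Gars, the glycine enzyme, at 159 and 174 FPKM, Nars, the asparagine enzyme, at 81.2 and 87.3 FPKM, and Yars, the tyrosine enzyme, at 67.1 and 71.6 FPKM, were not called. Hars, the histidine enzyme, stood at 40.4 and 38.7 FPKM, Vars, the valine enzyme, at 88.7 and 78.5 FPKM, and Cars, the cysteine enzyme, at 53.1 and 41.3 FPKM, also without a call. Split by catalytic class, 3 of the 9 class I genes rose and 1 fell, and 3 of the 10 class II genes rose and 3 fell, with Eprs in neither count because it holds a part of each class.

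The subunits of the cytosolic phenylalanine enzyme moved in opposite directions. This enzyme is built from equal numbers of an alpha and a beta chain, encoded by Farsa and Farsb. Farsa fell from 65.8 to 51.0 FPKM (q = 0.0102 in the authors' deposited table) while Farsb rose from 29.4 to 39.8 FPKM (q = 0.00116 in the authors' deposited table). The level of Farsa was 2.23 times that of Farsb in untreated cells and 1.28 times after IFN-gamma. Both changes were under 1.5-fold, and Farsa was not called at a q under 0.01.

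Aars, the alanine enzyme, had a larger ratio than some called genes and was not called. It stood at 92.1 and 132 FPKM, a log2 ratio of 0.52, with a test score of 0.87 and q = 0.212 in the authors' deposited table. Tars had a log2 ratio of 0.45, a test score of 2.10 and q = 0.000529 in the authors' deposited table. The 5 genes with the amino acid response element had log2 ratios of 0.09 for Yars, 0.13 for Gars, 0.43 for Iars, 0.45 for Tars and 0.52 for Aars. These ratios were all above 0, as were those of 13 of all 20 cytosolic genes, with 7 below 0. Of the 5 genes Tars was called. With the length trend taken out the 5 ratios were 0.09, 0.27, 0.24, 0.32 and 0.08, in the same order. Whether the element bears on the ratios was not tested.

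Among the mitochondrial genes falls outnumbered rises. Of 16 genes 8 fell, 1 rose and 7 were not called. Falls were thus 50% of the set, against 20.9% of all tested genes, and the rise was 6.25% against 23.4%. Among tested genes with at least 5 FPKM in the higher group, 28% fell and 29.1% rose. The set had a median log2 ratio of -0.42, beside 0.04 for all tested genes. At least 2-fold falls were those of 4 of the 16 genes, namely Cars2, Mars2, Ears2 and Lars2, against 8.88% of all tested genes.

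Cars2, the mitochondrial cysteine enzyme, which in mammals also makes cysteine persulfides, had the largest fall of all 36 genes, from 29.7 to 10.2 FPKM, a log2 ratio of -1.54. Mars2, the methionine enzyme that starts mitochondrial translation, fell from 7.24 to 3.44 FPKM. Ears2 fell from 7.53 to 3.64 FPKM (q = 0.00376 in the authors' deposited table). It charges glutamate, also onto the mitochondrial glutamine tRNA for later conversion. Lars2 fell from 540 to 262 FPKM, and Nars2, the asparagine enzyme, from 9.69 to 4.97 FPKM. Yars2, the tyrosine enzyme, went down from 54.1 to 28.8 FPKM, Tars2, the threonine enzyme, from 29.8 to 19.4 FPKM, and Pars2, the proline enzyme, from 4.99 to 3.25 FPKM. In the authors' deposited table q was 0.00509 or less for all of these 8 falls.

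The mitochondrial genes without a call lay close to an even ratio before the length trend was taken out. Iars2 stood at 26.1 FPKM in both groups, Fars2 at 9.38 and 9.49 FPKM, Sars2 at 6.53 and 6.40 FPKM and Hars2 at 16.2 and 15.7 FPKM. Aars2 stood at 6.35 and 5.48 FPKM, Vars2 at 16.2 and 14.1 FPKM and Rars2 at 15.8 and 18.2 FPKM. With the length trend taken out, the log2 ratios of these uncalled genes ran from -0.39 for Vars2 to 0.41 for Rars2. Lars2 held 69% of the summed FPKM of the mitochondrial genes in untreated cells. Without it the sum went from 243 to 173 FPKM and the median log2 ratio was -0.21, with 7 falls left of 15 genes. In mouse RNA data the Lars2 level can include fragments of ribosomal RNA, so its value is uncertain, and whether such fragments were counted here was not tested.

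For the same amino acid, the cytosolic gene mostly had the higher ratio. A mitochondrial gene could be set beside a cytosolic one in 17 pairs, in which Eprs stood for both glutamate and proline and Fars2 was set beside each chain of the cytosolic enzyme. In 14 pairs the log2 ratio of the cytosolic gene was above that of the mitochondrial gene, and the median difference was 0.90. The largest differences were 1.89 between Lars and Lars2, 1.80 between Eprs and Ears2, and 1.41 between Wars and Wars2. The pairs Farsa with Fars2, Hars with Hars2, and Sars with Sars2 went the other way, the last by -0.69. Tryptophan was the amino acid for which both genes rose and methionine the one for which both fell. The call of Wars2 was lost at a q under 0.01 and at 1.5-fold, and that of Mars at 2-fold. At 3.87 FPKM in treated cells Wars2 lay outside the genes of at least 5 FPKM, so p-values readjusted over those genes do not test its call. The level of the cytosolic gene was above that of the mitochondrial gene in 16 of 17 pairs in both groups, leucine being the exception. Pairs that share a gene are not separate observations, and this comparison carries no test.

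**Figure D3:**
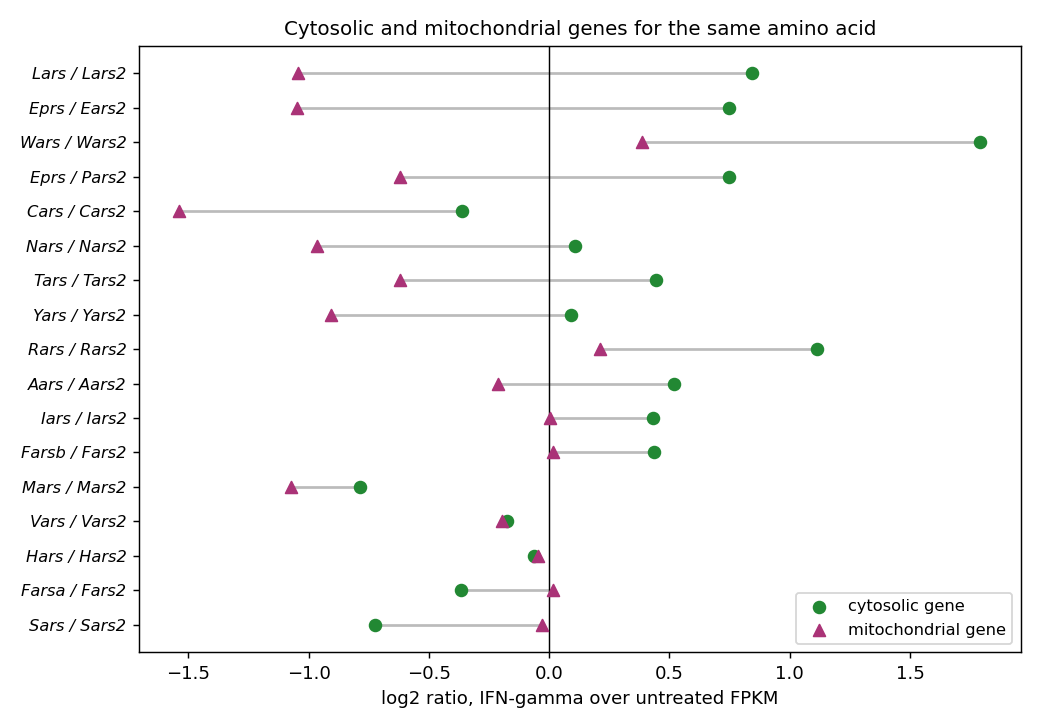
Log2 ratio of IFN-gamma over untreated FPKM for the cytosolic (green circle) and mitochondrial (purple triangle) gene of the same amino acid, 17 pairs ordered by the difference, 1 value per gene. The circle lies to the right of the triangle in 14 pairs, and tryptophan and arginine are the pairs with both points at 0.21 or more.

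Other genes of tRNA charging and its surroundings were taken from lists by function. The counts below stand beside 23.4% higher and 20.9% lower among all tested genes, and 26.1% and 35.9% among those of at least 20 FPKM. Among genes for removing or editing mischarged tRNA, and genes related to them, Dtd1 rose from 22.3 to 27.7 FPKM. Dtd2 fell from 12.04 to 9.32 FPKM and Aarsd1, an alanine editing factor, from 39.6 to 29.3 FPKM. Of the 5 genes of this list 1 rose and 2 fell. The other 2, Prorsd1 and the related gene Tarsl2, were not called. In the mitochondrial list, Gatc, a subunit of the amidotransferase that completes the glutamine tRNA, rose from 6.94 to 8.77 FPKM, and Mtfmt, which formylates the initiator methionine, fell from 15.2 to 11.8 FPKM. The third tested gene, Qrsl1, at 6.57 and 7.23 FPKM, was not called. Falls were 35.9% among tested genes of at least 20 FPKM. The listed elongation factors fell where they were called, 3 of 5 in the cytosol and 2 of 4 in the mitochondrion. Of those in the cytosol Eef1b2 went from 2764 to 1208 FPKM, Eef1d from 355 to 203 FPKM and Eef1g from 729 to 532 FPKM. These 3 encode chains of the complex that reloads Eef1a1 with GTP, and Eef1a1 itself, at 7445 and 6823 FPKM, was not called. The mitochondrial factors Tufm and Tsfm both fell, the first from 26.8 to 19.2 FPKM and the second from 37.1 to 21.9 FPKM. Taking out the length trend made these falls smaller. The median log2 ratio of the cytosolic factors went from -0.45 to -0.15, Eef1g from -0.45 to -0.15 and Tufm from -0.49 to -0.18.

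The genes of tRNA maturation and export held 4 falls and 0 rises among 9 tested, which is 44.4% of the list beside 35.9% of falls among tested genes of at least 20 FPKM. Their median log2 ratio was -0.16, and -0.50 with the length trend taken out. The falls included subunits of the endonuclease that removes introns from tRNA. Tsen34 fell from 223 to 49.96 FPKM, Tsen54 from 39.99 to 16.2 FPKM and Tsen15 from 28.2 to 18.3 FPKM. Rtcb, which joins the cut ends, at 97.8 and 99.97 FPKM, and the export factor gene Xpot, at 20.2 and 18.1 FPKM, were not called.

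Genes of the amino acid response, a response that in many cells moves the cytosolic synthetase genes together, mostly fell. Of 19 tested genes 12 fell, 3 rose and 4 were not called. Falls were thus 63.2% of the list, beside 20.9% of all tested genes and 35.9% of those of at least 20 FPKM. Atf4 itself, named for its role, fell from 209 to 116 FPKM. The largest falls were those of Chac1, which degrades glutathione (36.1 to 7.43 FPKM), and of the serine synthesis genes Phgdh (311 to 70.4 FPKM) and Psph (91.6 to 31.3 FPKM). The rises were those of Atf3 (8.22 to 55.3 FPKM), Nupr1 (6.50 to 15.1 FPKM) and Ddit3 (36.5 to 62.9 FPKM), the latter pair named after their values were seen. Asns, the asparagine synthetase gene and a textbook target of Atf4, was at 101 and 80.5 FPKM and was not called. The median log2 ratio of this list was -0.48, beside 0.13 for the cytosolic synthetase genes.

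**Figure D4:**
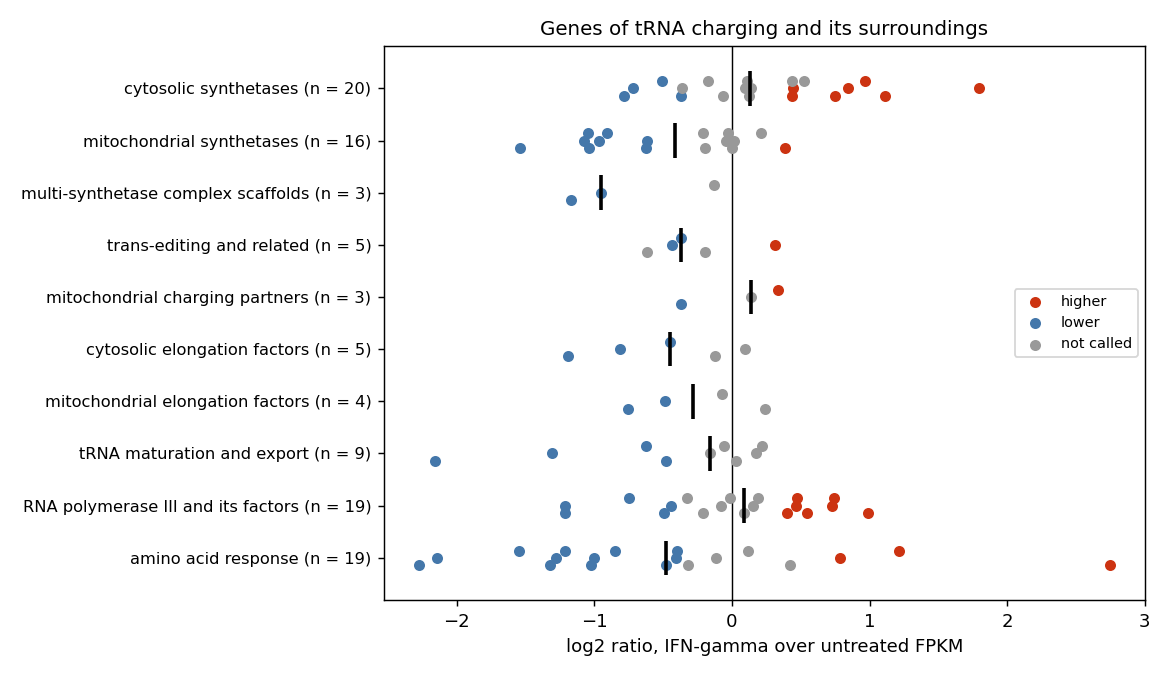
Log2 ratio of IFN-gamma over untreated FPKM for each tested gene of 10 lists, 1 point per gene coloured by the authors' call (red, higher; blue, lower; grey, not called), with the median of each list as a black bar. The medians are 0.13 for the cytosolic synthetases, -0.42 for the mitochondrial synthetases and -0.48 for the amino acid response.

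The supply of tryptophan, the amino acid that Wars uses, was covered by a list of uptake and breakdown genes. The transporter chains Slc7a5 and Slc3a2 stood at 59.2 and 55.1 FPKM and at 90.9 and 87.2 FPKM, and neither was called. Of the breakdown genes, Ido1 and Ido2 rose, each from 0.50 FPKM, to 3.01 and 2.69 FPKM. Haao, a later step of this breakdown, fell from 0.94 to 0.14 FPKM. It stood under 1 FPKM in both groups and was named after its values were seen. Of the 8 tested genes 2 rose, 1 fell and 5 were not called. Treated cells thus held Wars at 272 FPKM beside tryptophan-degrading enzyme genes at about 3 FPKM.

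Transcript length moved with the ratios in this table. Across 12294 tested genes with at least 1 FPKM, the median log2 ratio was -0.48 for genes whose longest transcript in GENCODE M21 had 890 to 1261 nt and 0.66 for those of 7981 nt or more, with a Spearman rho of 0.34 across genes. The cytosolic members had a median length of 3066 nt and the mitochondrial members of 3490 nt. With the median of genes of like length taken out, all 20 called synthetase genes kept their direction, Wars stood at 1.90 and the medians were 0.18 and -0.51. Aars went from 0.52 to 0.08 and Eprs from 0.75 to 0.39. Mars2 was measured against a listed transcript of 11294 nt, longer than its locus in the authors' deposited table, so its corrected value of -1.73 is uncertain.

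Some members share their locus with another gene, and fragments there were divided by the authors' software without knowledge of strand. Of 36 members 17 shared a locus, beside 48.2% of all tested genes. Of the 11 cytosolic genes with a shared locus 3 rose (27.3%) and 3 fell (27.3%). Of the 9 with a locus of their own 4 rose (44.4%) and 1 fell (11.1%). Among tested genes of at least 20 FPKM 26.1% rose and 35.9% fell. Mars overlaps Ddit3 on the other strand, and the fall of Mars (85.4 to 49.5 FPKM) stood beside a rise of Ddit3 (q = 0.0366 in the authors' deposited table). Ears2 shares its locus with Ubfd1, which fell from 23.3 to 16.2 FPKM, and Cars2 with Carkd, at 48.7 and 38.6 FPKM without a call. Some members without a call are overlapped in GENCODE by a called gene on the other strand. At Yars, C77080 rose from 12.3 to 22.3 FPKM, and at Iars2, Rab3gap2 rose from 5.05 to 9.31 FPKM. At Fars2, Lyrm4 fell from 16.6 to 9.02 FPKM. In the table Wars shares its locus with the small RNA gene Gm22079, at 2.32 and 5.68 FPKM without a call. In GENCODE it is also overlapped on the other strand by 5033424D13Rik and by the protein-coding gene Wdr25, which fell from 4.15 to 3.14 FPKM (q = 0.00693 in the authors' deposited table). Wars is thus left out wherever members with a shared locus or an overlap are left out. By contrast, Rars, Kars and Eprs have loci of their own. The part of these neighbours in the results was not tested.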

How the data were processed

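RNA of 3 untreated and 3 IFN-gamma libraries was sequenced after an Illumina TruSeq RNA V2 preparation, per the labels' protocols, a kit that does not mark strand. Per the submitters' processing notes, the tools were TopHat2 2.0.11, Cufflinks 2.2.1 and Cuffdiff, and the genome build was GRCm38. For the annotation release and settings nothing is given in the sources used here. The deposited table holds FPKM per the file headers, 1 value per group, with a test score, a p-value and a q-value from the authors. The table's heading names infected cells, while its sample cells read B16 and IFN, which were followed. Shorter sheets with the same values were not used. The planned model on library values gave way to the branch for group values.

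Log2 ratios were recomputed from FPKM without a pseudocount. Calls used the authors' q under 0.05. The members and lists were chosen with earlier results of these data known, so counts and medians over a list carry no test. Named were all members and, per further list, up to 4 called genes of at least 1 FPKM with the largest ratio. Neighbours at a locus, genes without a call and genes named for their role were chosen after their values were seen. The length trend was the median ratio in 20 bins of the longest GENCODE M21 transcript. It was tested on simulated data. Motifs were searched in RefSeq promoters. The planned protein comparison was not made, and some genes of the further lists are not reported here. Alternatives included other thresholds, pseudocounts of 0.1 and 1, recentring and leaving out members. Python 3.11.15, pandas 2.3.3, numpy 2.4.6 and matplotlib 3.10.9 were used.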

Additional observations from a re-analysis of the deposited data

How the results depend on the processing

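No paired analysis was possible because the table gives 1 value per group, and for the same reason no replicate could be left out. The direction of every called member held under recentring (all genes with at least 1 FPKM had a median log2 ratio of 0.05), under both pseudocounts and with the length trend taken out. The 7 cytosolic rises became 2 where at least 2-fold was asked, 4 among members with a locus of their own and 4 without members overlapped on the other strand, while the 4 cytosolic falls became 0, 1 and 2, and 2 where at least 1.5-fold was asked. The 8 mitochondrial falls became 4 at 2-fold, 5 with a locus of their own and 5 without overlapped members. The mitochondrial rise, that of Wars2, became 0 at a q under 0.01, at 1.5-fold and at 2-fold. It was also 0 with p-values readjusted over genes of at least 5 FPKM and among members of at least 5 FPKM. The same held among members with a locus of their own and without overlapped members. Wars2 lies outside each of these sets, so these counts do not test its call. With Gars and Kars counted as mitochondrial the rises became 2. That count also moved the mitochondrial median to -0.21 and the cytosolic minus the mitochondrial median from 0.55 to 0.33. Leaving out Lars2 gave -0.21 and 0.34, and leaving out overlapped members -0.62 and 0.76. With the length trend taken out the difference was 0.68. The last 2 exclusions were chosen after seeing the data. Smaller counts under exclusions follow in part from fewer members; otherwise the cause was not tested. Depth is unknown and limits the lowest members, Wars2, Pars2, Mars2 and Ears2, most.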

Other observations

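RNA polymerase III, which makes tRNA, and its factors went both ways. Of 19 tested genes 7 rose, 5 fell and 7 were not called, beside 23.4% of all tested genes called higher and 20.9% called lower. Polr3b, a chain of the catalytic core, rose from 2.95 to 5.85 FPKM while Polr3a, the other large chain, rose from 4.81 to 7.97 FPKM and was chosen once values were known. Polr3g fell from 9.98 to 4.31 FPKM. Maf1, the repressor of this polymerase, fell from 119 to 70.7 FPKM. With the length trend taken out, Polr3b stood at a log2 ratio of 0.76 and Maf1 at -0.45. The median log2 ratio of the list went from 0.09 to -0.04. Of the genes that rose, Bdp1 went from 0.74 to 0.08 and Gtf3c1 from 0.46 to -0.08, both named after their values were seen. The other genes that rose stood at 0.35 or more.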
